A study of Mus musculus with 2 samples.

Results

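The miRNA genes of the miR-297, miR-466, miR-467 and miR-669 families were followed in left cerebral cortex of the mouse. They were taken by gene symbol from GENCODE M21: every symbol made of Mir297, Mir466, Mir467 or Mir669 with at most 1 letter and an optional copy number. This gave 81 of the 2202 annotated miRNA genes, with 6 in miR-297, 28 in miR-466, 17 in miR-467 and 30 in miR-669. The cortex came from mice of strain B6CASTF1/J, an F1 cross between C57BL/6J and CAST/EiJ, aged 18 to 20 months, and RNA shorter than 30 nucleotides was sequenced from total RNA. The labels give a single group of 2 biological replicates with no treatment and no second tissue or age. They name the animals female in the source name and the characteristics, and male in the description. Both libraries carry the same donor identifier and different biosample identifiers, and only the replicate numbers speak for separate animals. The SD of the 2 libraries and the test between them may therefore measure technical spread.

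A miRNA is cut from a hairpin precursor, and either arm of the hairpin can give a mature strand that guides Argonaute to messenger RNAs through its seed, bases 2 to 8. Sfmbt2 encodes a Polycomb group protein. It is imprinted in the mouse placenta, where the paternal copy is active, and a large intron of the gene holds a rodent-expanded array of related miRNA hairpins known for expression in placenta and embryonic stem cells. Many of these hairpins are near-copies of each other and rich in runs of alternating C and A or U and G.

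Of the 81 members, 71 lay inside Sfmbt2 (ENSMUSG00000061186.15, chromosome 2, 10370510 to 10595253, plus strand, mm10), and all 71 were on its strand. They spanned 51.6 kb, from 96.2 kb to 148 kb downstream of the start of the gene, within 1 intron (10461473 to 10523944) that is intron 10 of 22 in 1 protein-coding transcript of the gene and intron 11 of 22 in another. The other 10 members lay on other chromosomes, 6 of them in introns of other genes and 4 between genes. Of the 6, 5 were opposite to the strand of their gene, and Mir466q was on the strand of Tnik, a kinase gene on chromosome 3.

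The RefSeq table of miRNA sequences (GRCm38.p6) matched 9 of the 81 members by symbol and gave a mature sequence for 8 of them. These 8 lie outside Sfmbt2 and are shown because they make the repetitive character of the families visible. Each is written 5′ to 3′ with the seed in capitals.
miR-466q: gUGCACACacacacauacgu
miR-466i-3p: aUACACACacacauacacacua
miR-466k: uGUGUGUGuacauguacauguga
miR-466j: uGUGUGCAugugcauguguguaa
miR-467f: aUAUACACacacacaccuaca
miR-467g: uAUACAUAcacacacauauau
miR-467h: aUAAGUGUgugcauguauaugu
miR-669n: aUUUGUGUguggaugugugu

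The 8 sequences held 8 different seeds, so none of them shared a seed with another of the 8. Of the 1738 mature entries in the table, only miR-668-5p carried one of these seeds, that of miR-467h. The table held no mature entry for the members inside Sfmbt2, so whether they share these seeds was not tested. In miR-466q, 15 of its 19 neighbouring base pairs were CA, AC, UG or GU, and in miR-466k 17 of 22. Of the 8 mature sequences, 7 occurred in no other annotated miRNA hairpin, and that of miR-467h occurred in Gm25510 and Gm26303. With 1 mismatch allowed, only miR-466q stayed without a match in another hairpin, while miR-467f matched 14 others and miR-467g 13.

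Levels are CPM, sense counts per 1000000 sense counts of all miRNA genes in a library, which came to 5166667 in replicate 1 and 4459993 in replicate 2. CPM was not divided by length, since mature miRNAs are of similar length. With 3 counts as the upper limit, a gene at 0 may still stand at 0.581 CPM (replicate 1) or 0.673 CPM (replicate 2). These limits hold for reads counted at a gene and do not bound reads with several places in the genome, which are listed apart. Intervals and limits cover counting error only. Markers of the labelled tissue were present: 9 of 12 neuronal miRNA genes, such as Mir128-1 and Mir137, reached 2 CPM in each library, and so did 2 of 3 oligodendrocyte genes. The neuronal list summed to 72709 ± 9288 CPM (SD, n = 2) and the oligodendrocyte list to 3908 ± 62.4 CPM. None of the 13 matched genes of the placenta and early embryo list, the Mir290 and Mir302 clusters, reached that level. That list held 4 counts in replicate 1 and 13 in replicate 2, with 6 of its genes at 0 in both. Genes of liver (1 of 1), skeletal muscle (1 of 5) and red cells (2 of 2) reached the level, and summed to 57.3 ± 3.90, 41.8 ± 33.4 and 65.9 ± 18.7 CPM. The muscle sum was all from Mir206, and the other 4 muscle genes were at 0 in both libraries.

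Few members carried counts, and with the exception of Mir466q those that did lay in Sfmbt2. Expressed means here a level of at least 2 CPM in each of the 2 libraries, which 8 of 81 members reached (9.88%), against 18.6% of all 2202 miRNA genes. At least 1 count in both libraries was found at 10 members (12.3%), against 28.1% of all genes, and 65 members (80.2%) had no count in either library, against 65.0% of all genes. The members together held 4782 counts in replicate 1, 0.0926% of sense counts (95% exact interval 0.0900% to 0.0952%), and 3941 in replicate 2, 0.0884% (0.0856% to 0.0912%). In CPM the sum was 904.6 ± 29.6 (SD, n = 2). Members inside Sfmbt2 accounted for 903.8 ± 29.4 CPM of this.

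The counts belonged almost wholly to miR-467 and miR-669. These families held 99.9% of the members' counts in replicate 1 and 99.8% in replicate 2. The 17 miR-467 genes summed to 549.9 ± 60.4 CPM with 3 expressed, and the 30 miR-669 genes to 353.1 ± 30.5 CPM with 5 expressed. None of the 28 miR-466 genes and none of the 6 miR-297 genes was expressed. The miR-466 genes had 6 counts in replicate 1 and 7 in replicate 2 over the whole family, and the miR-297 genes had 1 in each.

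Mir467d (ENSMUSG00000077021.2, chromosome 2, 10507630 to 10507714) was the highest member, with 434.1 CPM in replicate 1 and 289.0 CPM in replicate 2 from 2243 and 1289 counts. It ranked at place 136 of all 2202 miRNA genes by its mean of 361.6 ± 102.6 CPM (SD, n = 2). Mir669c (ENSMUSG00000076118.1, 10509296 to 10509404) stood at 223.4 and 259.4 CPM from 1154 and 1157 counts. Mir467e (ENSMUSG00000076948.2, 10505721 to 10505807) stood at 133.9 and 203.4 CPM from 692 and 907 counts. The ranges of these 3 genes over the libraries did not overlap, and each was above the median level of all 409 expressed miRNA genes, 88.9 CPM. They lie close to each other in the array, with Mir467e first and Mir669c last, and together held 85.3% ± 0.303 (SD, n = 2) of the members' counts.

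The other 5 expressed members were below that median. Mir669o (ENSMUSG00000077086.1, 10514300 to 10514395) had 79.9 CPM in replicate 1 and 72.4 CPM in replicate 2, from 413 and 323 counts. Mir467c (ENSMUSG00000077049.2, 10473931 to 10474027) had 24.2 and 14.8 CPM, from 125 and 66 counts. Mir669l (ENSMUSG00000076959.1, 10468971 to 10469068) had 21.5 and 14.1 CPM, from 111 and 63 counts. Replicate 1 was the higher library in these 3 genes. Mir669h (ENSMUSG00000080594.1, 10518155 to 10518279) had 2.90 and 14.6 CPM, from 15 and 65 counts. Mir669e (ENSMUSG00000080653.1, 10467495 to 10467613) had 3.48 and 13.9 CPM, from 18 and 62 counts. In both of these the order of the libraries was turned, and replicate 1 was just above the 2 CPM limit. The 5 highest members kept their order in both libraries, and the other 3 did not. In replicate 2 Mir467c, Mir669h, Mir669l and Mir669e were all between 13.9 and 14.8 CPM. There Mir467c, the lowest of the 5, had 66 counts against 65 for Mir669h, so its place is not firm.

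**Figure D1:**
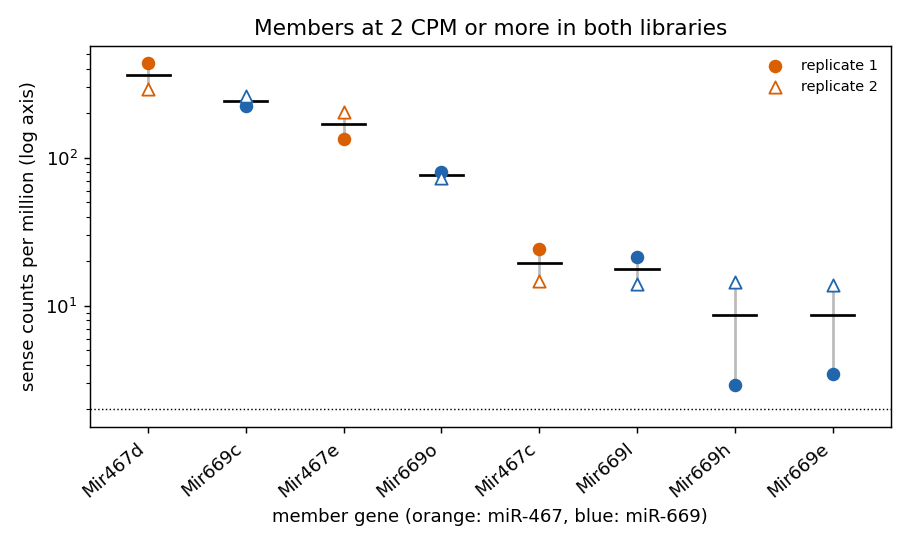
Level of the 8 expressed members in CPM (log axis), with replicate 1 as filled circles, replicate 2 as open triangles, the mean of the 2 libraries as a black bar and the 2 CPM limit as a dotted line. Mir467d stands highest at 434.1 and 289.0 CPM, and Mir669h and Mir669e show the widest gaps between the libraries.

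Below that level, 2 members had counts in both libraries. Mir466q (chromosome 3, 28419943 to 28420018, in a Tnik intron) was counted 5 times in replicate 1 and 3 times in replicate 2, and was the 1 member outside Sfmbt2 with any count. Among the 8 mature sequences available, its own was the one without a match in another hairpin when 1 mismatch was allowed. By shared stretches of 18 nucleotides miR-467f had no match either, and Mir467f had no count. Whether such matches bear on the counts was not tested. Mir466h had 1 count in each library. A further 6 members had counts in 1 library only, at most 3. In replicate 1 alone, Mir467a-1 and Mir669a-3 had 2 counts each and Mir297a-4 had 1. In replicate 2 alone, Mir466n had 3 counts, and Mir669f and Mir297a-2 had 1 each. These 8 members were below the count minimum of the test between the libraries and were not compared.

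The symbol rule left out 48 further miRNA genes inside Sfmbt2, all with predicted-gene names. None of these was expressed, and 45 had no count in either library. The other 3 were Gm22239 with 4 and 0 counts, Gm25263 with 0 and 2, and Gm22072 with 0 and 1. All 119 miRNA genes inside Sfmbt2 therefore summed to 904.5 ± 29.5 CPM, of which the other genes made up 0.723 ± 0.0718 CPM.

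The members shared hairpin sequence with other miRNA genes more often than miRNA genes in general did, which bears on how they can be counted. Reads with several places in the genome are listed apart from the gene counts in the deposited tables, at 41.8% (replicate 1) and 46.4% (replicate 2) of the reads. They are not split by gene, so the members' part in them was not tested. Each hairpin was cut into all its overlapping stretches of 20 nucleotides, and a stretch was called private when it occurred in no other of the 2202 annotated hairpins. Of the 81 members, 79 (97.5%) shared at least 1 stretch with another miRNA gene, against 49.2% of all genes. No private stretch at all was left in 32 members (39.5%), against 13.7% of all genes. The 81 members had 63 distinct hairpin sequences. The largest set of identical hairpins was the 9 genes from Mir669a-4 to Mir669a-12, and 57 members were at least 90% identical to their nearest fellow member. The hairpins were also rich in CA, AC, UG and GU steps, with a median of 51.2% of their base steps, against 27.0% over all miRNA genes. The miR-466 genes had the highest median of the 4 families, at 56.0%.

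Counts were found mostly at members with private sequence. Of the 32 members with no private stretch, none was expressed and 1 had a count in either library, Mir467a-1 with 2 and 0. Of the 28 members with some private stretches but fewer than 50%, 1 was expressed, Mir467d. Of the 21 members with 50% or more, 7 were expressed (33.3%). Over all miRNA genes the share expressed was 0.997% of the 301 with no private stretch, 0.580% of the 345 with fewer than 50%, and 26.0% of the 1556 with 50% or more. The highest member count came from a hairpin with only 37.9% of its stretches private.

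Private sequence did not go with counts everywhere. Mir466g, inside Sfmbt2, and Mir669n, on chromosome 3, had only private stretches and no count in either library. The stretches cover the whole hairpin and are not the mature strand. The mature sequence of miR-669n occurred exactly in no other hairpin, and in 1 other with 1 mismatch. For members inside Sfmbt2 no mature sequence was available, so whether their mature strands have a single place was not tested. Of the 21 members with 50% or more private stretches, 11 had no count in either library. Among the 13 of these 21 inside Sfmbt2, 7 were expressed and 4 had no count. Among the 8 outside it, 7 had no count, and the other was Mir466q. In miR-466, 9 of 28 genes had 50% or more private stretches, and none of the 9 was expressed.

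**Figure D2:**
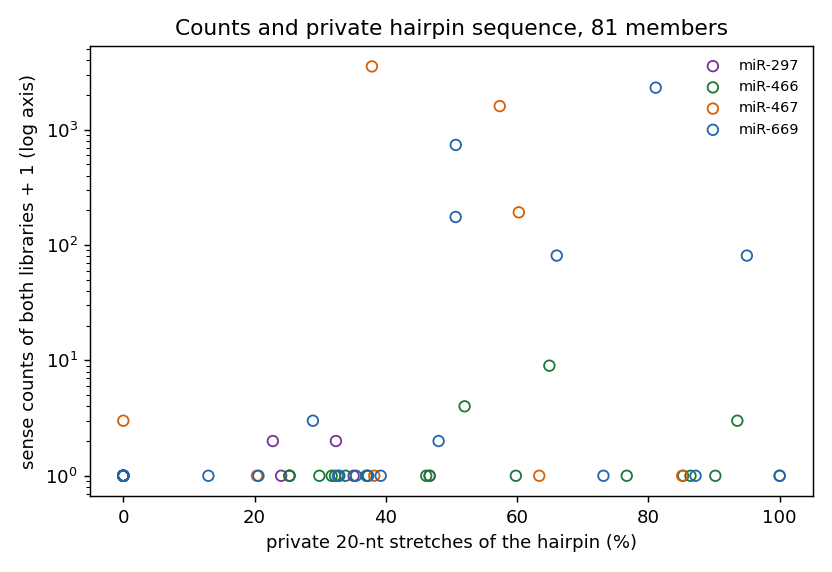
Share of private 20-nucleotide stretches in the hairpin (x axis, percent) against the sense counts of both libraries plus 1 (log axis) for the 81 members, with 1 open circle per gene coloured by family. The 8 expressed members lie at 37.9% or more, and many members at the same shares have no count.

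Several expressed members were near-copies of other members, some of which had few or no counts and some of which were expressed. The hairpin of Mir467d was 95.9% identical to that of Mir467a-1, counted as edits over the shorter hairpin. Of its 25 private stretches, 19 lay wholly on the 5′ side of the hairpin's midpoint and 6 on the 3′ side. Mir467c was 95.3% identical to Mir467d, and all 29 stretches on its 3′ side were private, against 17 of 29 on the 5′ side. Mir467e was 94.3% identical to Mir467c, and its private stretches were found on both sides, 20 of 24 on the 5′ side and 19 of 24 on the 3′ side. Mir669l was 93.0% identical to Mir669d-2, which had no count. Mir669o was 95.4% identical to Mir669a-10, a gene with no count and no private stretch. Mir669h was 87.2% identical to its neighbour Mir669i, which had 73.1% of its stretches private and no count in either library. Mir669c was farthest from its fellows among the expressed members, at 81.2% identity to Mir669o, its nearest member.

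Along the intron the expressed members lay at the ends of the array. The 13 members up to and including Mir467c held 3 expressed genes and 254 counts in replicate 1 and 193 in replicate 2. The 20 members from Mir467e onwards held 5 expressed genes and 4519 and 3745 counts. Between these, 38 members had 4 counts in replicate 1 and none in replicate 2. Both limits, Mir467c and Mir467e, are expressed members picked with the counts known. That no member between them was expressed therefore follows from the cut. Of these 38, 31 had no private stretch. This middle stretch carries the repeated unit: the 10 Mir467a copies follow each other at a median start-to-start distance of 2462 bp (2413 to 4880 bp). Copies of Mir466b recur at a median of 2470 bp (2409 to 9795 bp), and those of Mir669a at 2457 bp (2420 to 6373 bp). Of the Mir669a copies, Mir669a-2 lies outside the middle stretch, past Mir467e. The 10 Mir467a copies had 2 counts in replicate 1 and 0 in replicate 2, the 8 Mir466b copies had none, and the 12 Mir669a copies had 2 and 0. Of the hairpins with no private stretch, Mir467a-1 had 2 counts in replicate 1 alone, which is under the limit that a count of 0 allows. Over the whole annotation, 3 of the 301 such genes were expressed. How many reads of the array are among those listed apart was not tested.

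**Figure D3:**
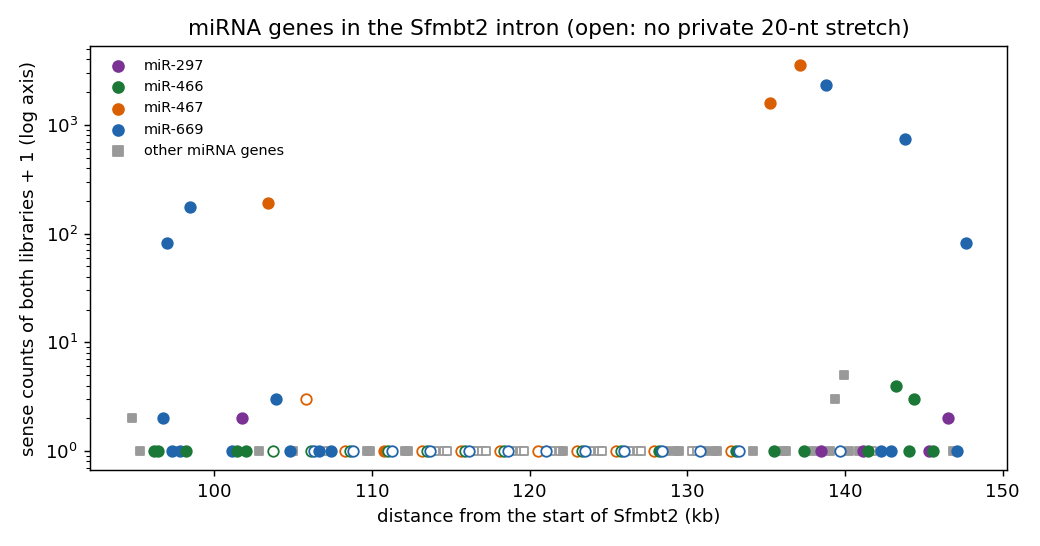
Sense counts of both libraries plus 1 (log axis) for the 71 members (circles, coloured by family) and the 48 other miRNA genes (grey squares) inside Sfmbt2, by distance from the start of the gene in kb. Open symbols have no private 20-nucleotide stretch; the expressed members stand at 97.0 to 103 kb and at 135 to 148 kb, and none of the open symbols in the middle has more than 2 counts.

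Strand gave no second signal. No member overlapped another miRNA gene, and the unstranded count equalled the sense count in both libraries for 80 of the 81 members. The exception was Mir466d, with 2 antisense counts in replicate 1, none in replicate 2 and no sense count, which is under the limit that a count of 0 allows.

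The libraries were compared with each other at each gene by an exact binomial test, two-sided, that set the share of its counts in replicate 2 against the share of that library after TMM scaling. P-values were adjusted by Benjamini-Hochberg over all 438 genes tested. This test compares 2 libraries and not 2 conditions, and its p-values know counting noise alone. All 8 expressed members and no other member reached the minimum of 20 pooled counts. Of these 8, 6 passed at 0.05, against 67.1% of all genes tested, so the members' share was near the background. Higher in replicate 2 were 4 members (32.6% of all genes tested were) and higher in replicate 1 were 2 (34.5%). The median absolute log2 ratio of the 8 was 0.52, against 0.59 over all genes tested.

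The members farthest apart between the libraries were Mir669h and Mir669e, from opposite ends of the array. Mir669h had a log2 ratio of replicate 2 to replicate 1 of 2.42 (95% exact counting interval 1.63 to 3.37, adjusted p = 3.56e-11 by the exact binomial test), and Mir669e one of 2.10 (1.35 to 2.97, adjusted p = 3.16e-09). They were the 2 of 8 that passed and were over 2-fold apart, against 25.6% of all genes tested. Mir467e and Mir467d, which lie close together, had log2 ratios of opposite sign, 0.73 (0.59 to 0.88, adjusted p = 1.63e-23 by the exact binomial test) and -0.46 (-0.56 to -0.36, adjusted p = 1.40e-19). Mir669c, the next gene of the array with counts, had 0.35 (adjusted p = 2.03e-08 by the exact binomial test), and Mir467c had -0.57 (adjusted p = 0.0139). Mir669l (-0.47, adjusted p = 0.0569 by the exact binomial test) and Mir669o (-0.01, adjusted p = 0.933) did not pass.

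**Figure D4:**
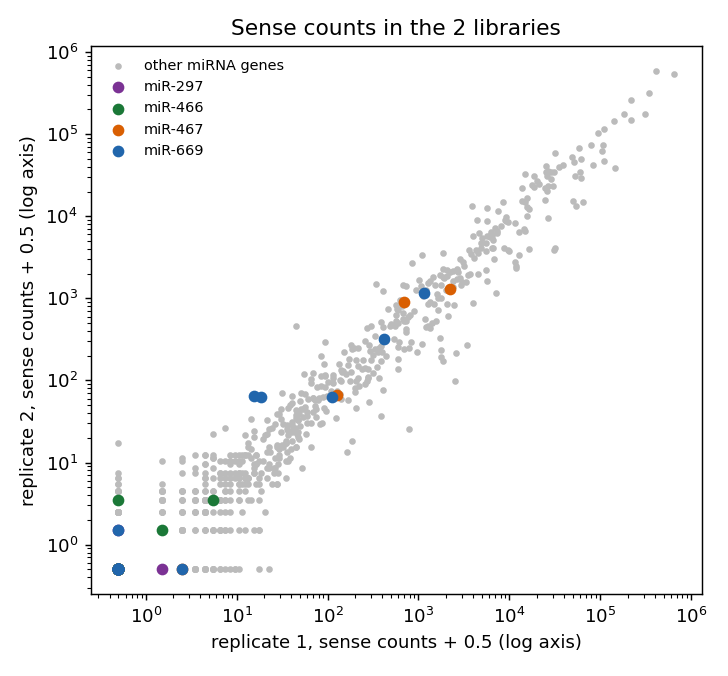
Sense counts plus 0.5 in replicate 1 (x axis) and replicate 2 (y axis) for all 2202 miRNA genes, both axes logarithmic, with the members coloured by family and all other genes in grey. Of the expressed members, Mir669h and Mir669e lie farthest off the diagonal, at 15 and 65 and at 18 and 62 counts. Of all genes tested between the libraries, 25.6% passed and were over 2-fold apart.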

How the data were processed

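Small RNA from left cerebral cortex was counted in 2 libraries of 1 group, with 1 table each. The authors deposited raw read counts per miRNA gene, without strand and on each strand, on mm10 with GENCODE M21 per the deposited descriptions of the files, and name no aligner or counter (not given in the sources used here). The third column of the table, the stranded one with the larger total, was taken as sense. The 4 lines that name no gene held 65.2% and 65.1% of reads and were left out. Identifiers, coordinates and hairpins came from GENCODE M21, whose 2202 miRNA genes match the tables. Hairpin identity used edlib 1.3.9.post1, with the shorter hairpin placed in the longer.

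TMM factors came from edgeR 4.0.16 and alternative size factors from DESeq2 1.42.0; the exact binomial test used SciPy 1.17.1, and 0.5 was added to each count in ratios. Relative to raw totals, every log2 ratio of replicate 2 to 1 moved by 0.13 under TMM and by 0.20 under DESeq2 size factors. Named are all expressed members, members with 3 or more counts in both libraries, up to 2 further members with counts of each family, and members passing the test over 2-fold. Members of note for sequence (such as Mir466g, Mir669n and Mir669i) and the 3 other genes with counts were named after their values were seen. Members, lists and tests were chosen with earlier results of these data known. The private mature sequence could be assessed for the 8 members with an entry; hairpin stretches were added for the rest. Sharing was searched among annotated hairpins, not the whole genome, and how CAST/EiJ alleles were placed on mm10 was not tested.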

Additional observations from a re-analysis of the deposited data

Results flagged for a closer look

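Reads with several places in the genome are a signal outside the gene counts and exceeded 3 counts by far, at 6203588 in replicate 1 and 5928954 in replicate 2. The deposited tables do not assign them to genes. Beside this, 79 of the 81 members had hairpin stretches of 20 nucleotides in common with other miRNA genes, and the members' part in these reads was not tested.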

How the results depend on the processing

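The number of expressed members stayed 8 under the unstranded column, TMM-scaled totals, a limit of 1 CPM, the rule by position and 1 library alone. It became 6 at limits of 5 and 10 CPM and with all reads as the total, which is within 1.5 times. The number with counts, 10, became 16 when a count in either library sufficed. The summed level, 904.6 CPM, moved to 979.4 CPM with the unstranded column, whose total is smaller, and to 315.2 CPM per 1000000 of all reads, a larger total by construction. Of 8 members with a mature sequence in the table, 7 had a private one, 2 when a shared stretch of 18 nucleotides counted and 1 when 1 mismatch was allowed. The 32 members without a private hairpin stretch stayed 32 with stretches of 18 or 22 nucleotides or with both strands searched, alternatives chosen after seeing the data. The 6 members called between the libraries became 7 on raw totals, where Mir669l passed (adjusted p = 0.0125 by the exact binomial test). No called ratio changed sign under the scalings tried. The count filters cannot change a ratio, and the unstranded counts equalled the sense counts at all members tested, so neither could change a sign. No paired analysis was possible because there is 1 group. Depth limits the 8 members with counts below 2 CPM.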
